A study of Mus musculus with 11 samples.

Results

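The genes described here are the cytosolic ribosomal protein genes of the mouse. They are the protein-coding genes whose symbol is Rpl or Rps followed by a number, with or without a final a or x, together with Rplp0, Rplp1, Rplp2 and Rpsa. The rule found 76 genes among the 55536 Ensembl genes in the count files, 46 of the large (60S) subunit and 30 of the small (40S) subunit. All 76 passed the low-count filter that left 20307 genes for testing. They lie on 19 chromosomes, with 14 genes on chromosome 7 and 4 on the X chromosome.

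A ribosome carries a single copy of most of these proteins, so their genes are transcribed in step in most tissues. Their mRNAs begin with a run of pyrimidines, the TOP motif, through which mTOR signalling governs how much of each is translated, and Myc and RNA polymerase I activity set how much ribosome is built. In skin, stem cells of the hair follicle bulge are known for a low rate of protein synthesis compared with their progeny. The RNA level of a ribosomal protein gene is not a measure of translation.

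The cells were epidermal cells from dorsal skin, freed with thermolysin and sorted by FACS, and the donors were male mice of the strain CD4Cre R26-tdT (C57Bl6/N). In this cross, Cre is driven by the CD4 promoter, and tdT stays on in any cell that has expressed it and in its progeny, the control (tdTneg) cells carrying the same alleles. All cells fell in a CD49f+CD34+ gate and were divided by Sca-1 and tdT into Sca-1neg tdT+ (n = 3), Sca-1neg tdTneg (n = 3), Sca-1+ tdT+ (n = 3) and Sca-1+ tdTneg (n = 2). The cells of 2 mice were pooled for every library. Age differed by replicate, at 29 weeks for replicate 1 in all groups and 32 weeks for the rest.

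Total counts ran from 17409131 to 46542177 per library. The tracer stood at 133 to 307 CPM (counts scaled to a library of fixed size) in 5 of the 6 tdT+ libraries and at 2.54 to 4.89 CPM in the tdTneg libraries, but replicate 2 of the library labelled Sca-1neg tdT+ had 2.05 CPM, so a direction drawn from it rests on a label that its tracer count goes against. In 3 libraries (Sca-1neg tdT+ replicates 1 and 2 and Sca-1neg tdTneg replicate 2) 20 liver transcripts had a sum of 19160 to 40300 CPM, while the remaining 8 libraries had at most 152 CPM. The sum of 15 T cell markers was 686 to 1666 CPM in Sca-1+ tdT+, 237 to 240 CPM in Sca-1+ tdTneg, at most 144 CPM in Sca-1neg tdT+ and 40.2 to 54.4 CPM in Sca-1neg tdTneg. The sum of 12 endothelial markers was 3558 to 4019 CPM in Sca-1+ tdTneg and 61.8 to 126 CPM in Sca-1+ tdT+. It ran from 9.70 to 937 CPM in the Sca-1neg libraries. The sum of 10 bulge markers was 8649 to 15960 CPM over the 6 Sca-1neg libraries and 3464 to 5681 CPM over the 5 with Sca-1, and that of 10 basal keratinocyte markers was 26580 to 48240 CPM. None of the T cell, endothelial, bulge or basal markers had a count of 0 in any library. The mRNA of Cd34, the antigen of the gate, stood at 22.4 to 35.7 CPM in Sca-1+ tdT+ and at 320 to 1130 CPM in the other 8 libraries.

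The start sites of these genes are shown first, because of the TOP motif described above. Promoter windows from RefSeq (build GRCm38.p6) were matched by symbol for 56 of the 76 genes. A run of at least 8 C or T on the coding strand, overlapping the stretch from 10 bases before to 10 bases after the annotated start, was found in 27 of the 56 (48.2%) and in 4259 of 27025 genes with a window (15.8%). The letters TATAAA, on either strand in the 50 bases before the start, were in 0 of the 56 and in 1127 of the 27025 (4.17%). A match is a description of letters, and annotated starts can be off by several bases. The windows below run 5′ to 3′ from 40 bases before the annotated start to 19 bases after it, with the pyrimidine run in capitals. Rps12 and Rpl13a are shown because they passed the threshold in a comparison, Rplp2 because it had the lowest adjusted p of the family for the tdT effect in Sca-1+ cells (0.0510), Rpl4 because it is among the genes with the highest level, and Rps6 because its protein is the S6 kinase substrate downstream of mTOR.
Rps12 (chr10:23787190-23787249, minus strand): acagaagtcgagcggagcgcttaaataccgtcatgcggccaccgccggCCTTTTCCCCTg
Rpl13a (chr7:45128726-45128785, minus strand): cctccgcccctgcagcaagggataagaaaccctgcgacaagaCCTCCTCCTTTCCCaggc
Rplp2 (chr7:141447611-141447670, plus strand): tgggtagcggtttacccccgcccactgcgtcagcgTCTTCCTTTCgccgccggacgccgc
Rpl4 (chr9:64173347-64173406, plus strand): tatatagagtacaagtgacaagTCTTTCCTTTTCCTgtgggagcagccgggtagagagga
Rps6 (chr4:86857348-86857407, minus strand): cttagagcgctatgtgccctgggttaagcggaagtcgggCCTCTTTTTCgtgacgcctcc
The run was 10 bases long in Rplp2 and Rps6, 11 in Rps12, and 14 in Rpl13a and Rpl4. Rplp0 and Rpl12 had a window without such a run.

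The 76 genes held between 1.04% and 2.28% of the counts of a library. The share was 1.121%, 1.11% and 1.46% in Sca-1neg tdT+ (mean 1.23% ± 0.197, SD, n = 3) and 1.15%, 1.36% and 1.77% in Sca-1neg tdTneg (1.43% ± 0.316, n = 3). It was 1.51%, 2.28% and 1.57% in Sca-1+ tdT+ (1.79% ± 0.430, n = 3) and 1.16% and 1.04% in Sca-1+ tdTneg (1.10% ± 0.0811, n = 2). All 3 Sca-1+ tdT+ libraries thus lay above both Sca-1+ tdTneg libraries and all 3 Sca-1neg tdT+ libraries, while they overlapped the Sca-1neg tdTneg libraries. Counting error was far smaller than these gaps: the exact Clopper-Pearson interval at 95%, which covers counting error only, ran from 2.27% to 2.29% in the highest library. At 29 weeks, with 1 library per group, Sca-1+ tdT+ had 1.51% and the other groups 1.121% to 1.16%. At 32 weeks the 2 Sca-1+ tdT+ libraries lay on either side of the highest Sca-1neg tdTneg library.

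**Figure D1:**
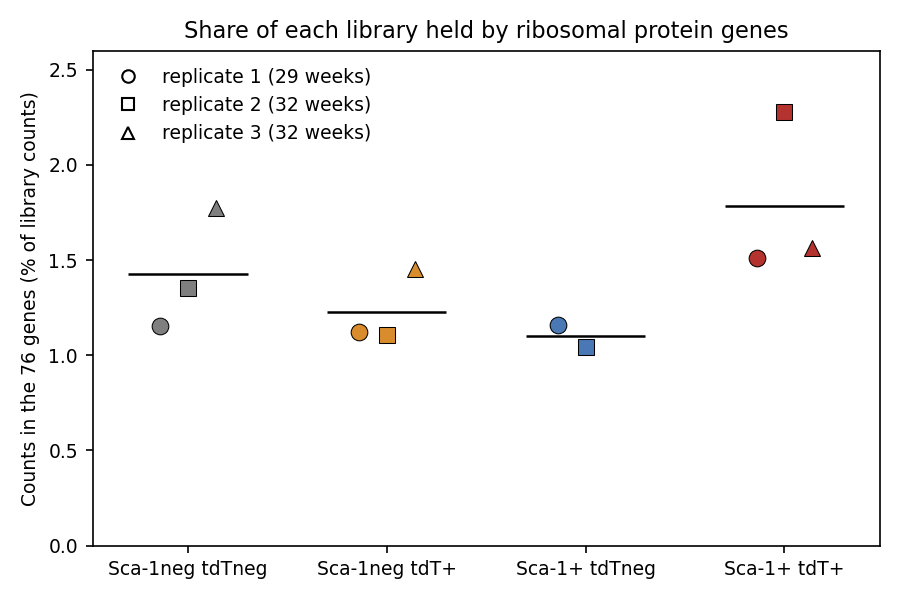
Percent of all gene counts that fall in the 76 ribosomal protein genes, by sorted group. Each point is a library (the symbol gives the replicate and its age) and each line is a group mean; the highest library, at 2.28%, is replicate 2 of Sca-1+ tdT+.

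The library with the highest share, Sca-1+ tdT+ replicate 2, also had the highest sum of T cell markers (1666 CPM). The library with the next highest share, Sca-1neg tdTneg replicate 3 (1.77%), had the lowest sum of T cell markers of the 11 (40.2 CPM). The part of T cell RNA in these shares was not tested. In bulk RNA from sorted cells, more cells of a type that is rich in these mRNAs and more of the mRNAs per cell cannot be told apart.

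Many of the genes moved together from library to library. The median over the 76 genes of the log2 level, relative to each gene's own mean over the libraries, was 0.61 in Sca-1+ tdT+ replicate 2, 0.34 in Sca-1neg tdTneg replicate 3 and 0.21 and 0.15 in the other Sca-1+ tdT+ libraries. It was -0.37 and -0.24 in the Sca-1+ tdTneg libraries and between -0.23 and 0.06 in the remaining 5. Among the 43 genes with a mean of at least 50 CPM, the median SD of the log2 level over the 11 libraries was 0.389, and it was 0.171 once the median of each library was taken off. For 42 of these 43 genes the SD became smaller. Over all 76 genes the median SD went from 0.373 to 0.206, and it became smaller for 63. The library medians come from these same genes, so part of the drop is built in. No other set of genes was compared. The 60S genes summed to between 1.14 and 1.39 times the 40S genes in every library.

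**Figure D2:**
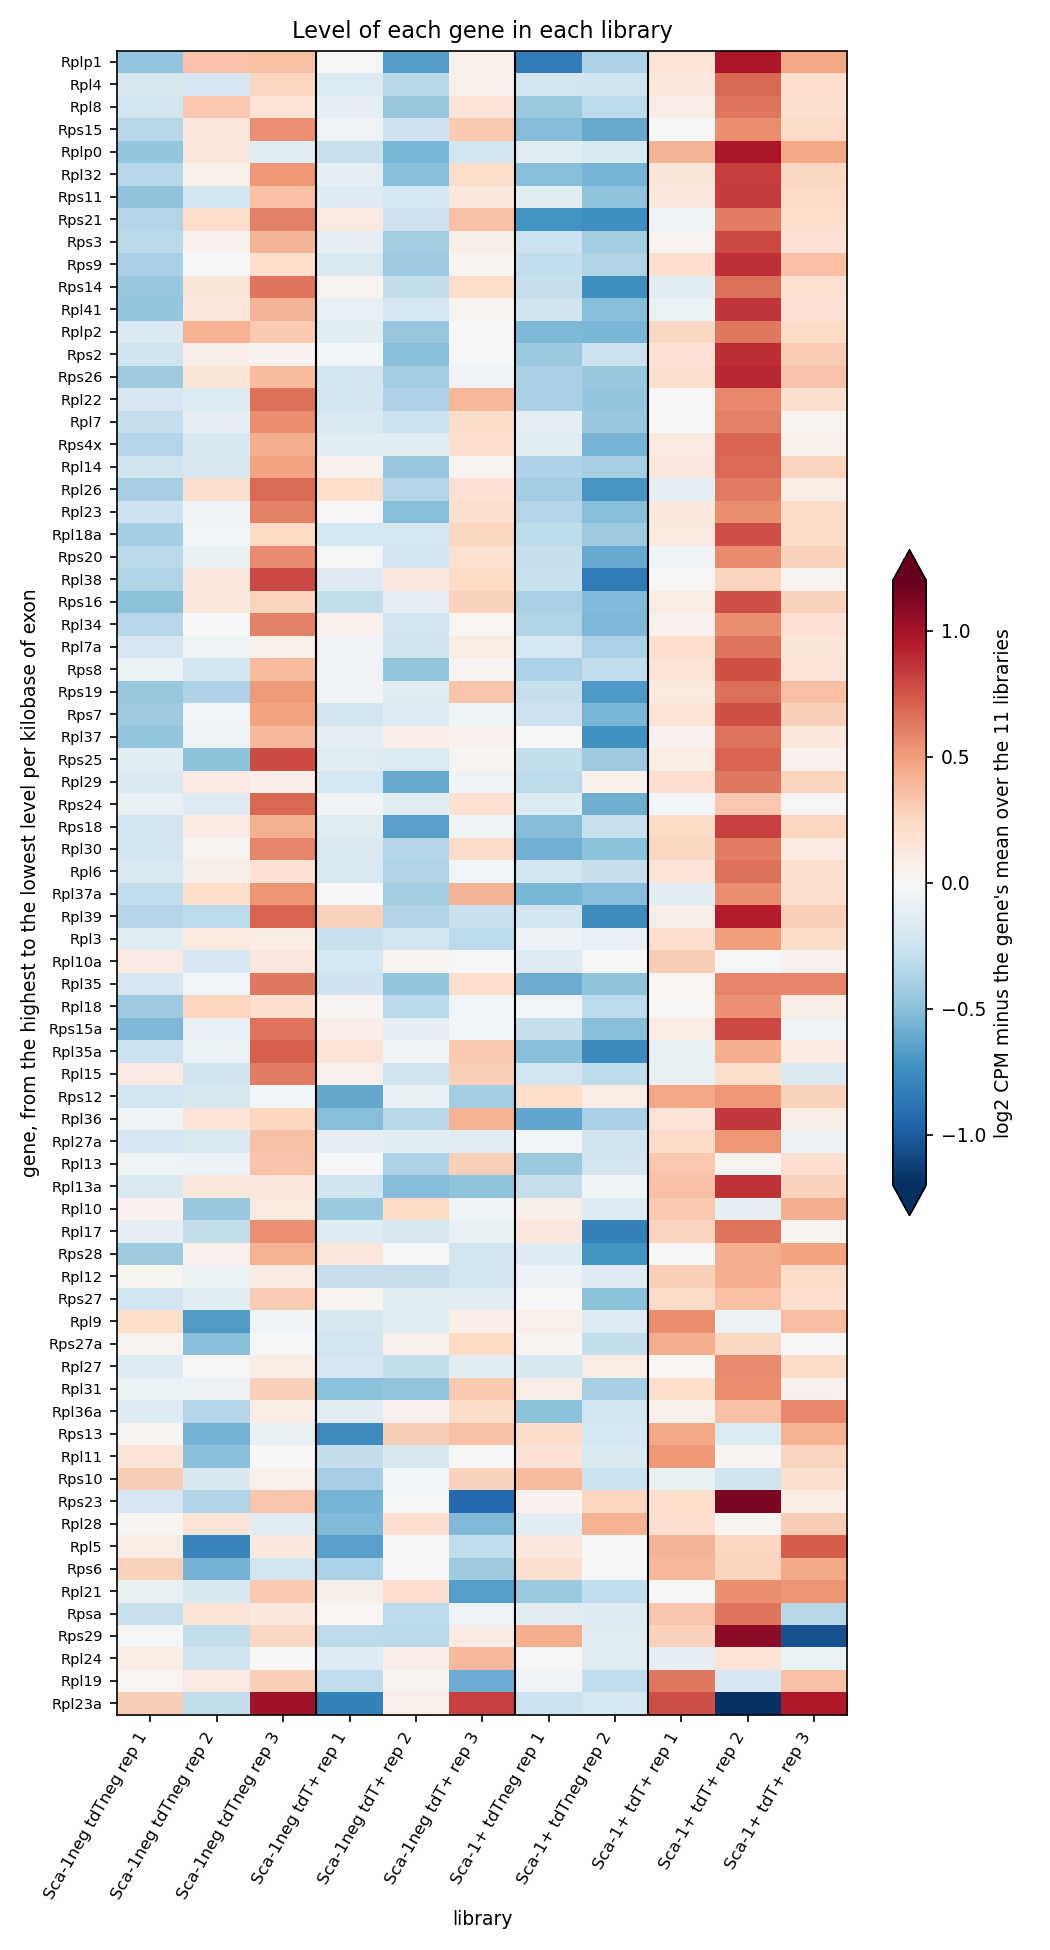
Level of 74 of the 76 genes (rows) in each of the 11 libraries (columns) as log2 CPM minus the gene's mean over the libraries, red for above and blue for below, with black lines between groups. Whole columns share a colour in the upper rows, red in Sca-1+ tdT+ replicate 2 and Sca-1neg tdTneg replicate 3 and blue in both Sca-1+ tdTneg libraries; the lower rows, with few counts, are noisier.

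The genes that departed most from the median of their library, among those with at least 50 CPM, were Rpl10a in Sca-1+ tdT+ replicate 2 (lower by 0.62, that is -0.62 on the log2 scale) and the stalk gene Rplp1 in Sca-1+ tdTneg replicate 1 (-0.59).

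Levels per length of exon spanned a 775-fold range. Rplp1 stood highest at 922 CPM per kilobase (kb), with Rpl4 at 862 and Rpl8 at 854, and the lowest were Rpl24 at 2.71, Rpl19 at 2.65 and Rpl23a at 1.19 CPM per kb. The median was 32.8 CPM per kb, 19 genes lay above 100 and 20 below 10. The 10 genes with most counts took between 57.5% and 62.0% of the counts of the family in every library. Rps6, the substrate of S6 kinase in the small subunit and usually an abundant mRNA, had only 3.25 to 6.61 CPM, and Rpsa, the laminin receptor protein, 7.07 to 13.97 CPM.

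Mouse ribosomal protein genes have many processed pseudogenes, intronless copies of the mRNA. For each gene, the main transcript in GENCODE was broken into all words of 50 bases, and the words that occur in a transcript of another gene were counted. The shared portion ran from 0% to 98.6%, the latter in Rps27, with a median of 56.0%, and 44 of the 76 genes had over 50%. The level per kb was lower in genes with more shared words: the median was 77.5 CPM per kb in the 32 genes at or under 50%, 29.5 in the 26 genes from 50% to 80% and 10.9 in the 18 genes over 80%. Across the 76 genes, Pearson's r between the shared percent and the log2 level was -0.55 and Spearman's rho -0.55, given as a description because genes are not independent and all points come from the same libraries. How reads that map to several places were counted is not given in the sources used here. The 298 pseudogenes named after a gene of the family, with -ps in the symbol, held 0.00433% to 0.0109% of counts. Many pseudogenes carry other names and were not summed: Rpl7a shares words with 120, and 13 are named after it. The level of a gene with many shared words is therefore uncertain, and levels are compared below between libraries rather than between genes.

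**Figure D3:**
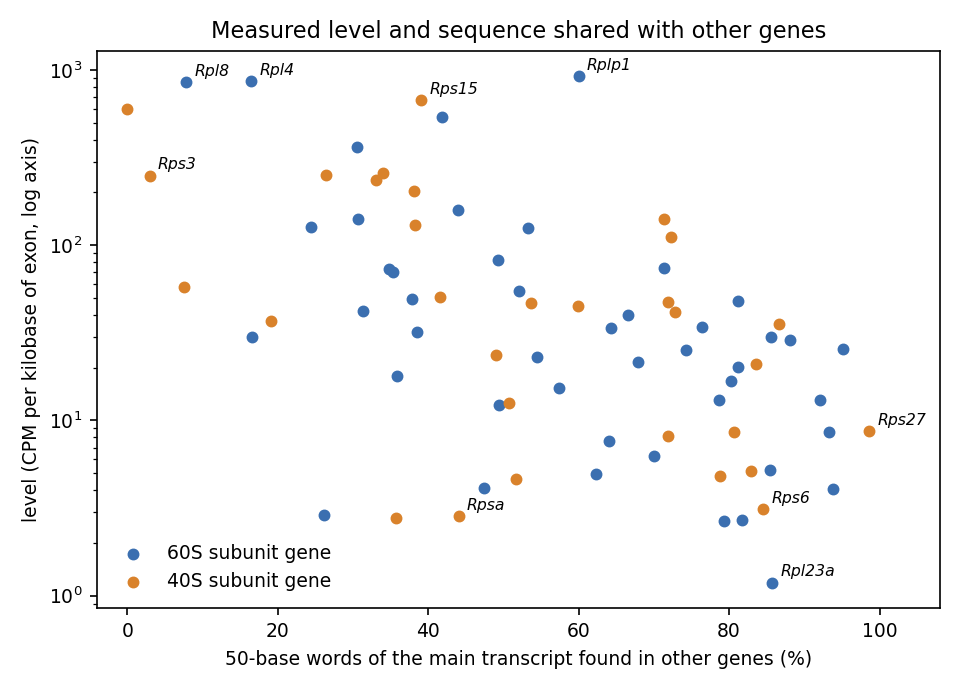
Level of each of the 76 genes (CPM per kilobase of exon, mean of the 4 group means, log axis) against the percent of 50-base words of its main transcript that occur in another gene. Of the genes with few shared words, Rps3, Rpl8 and Rpl4 sit high while Rpl39, at 29.9, lies below the family median of 32.8, and the lowest gene, Rpl23a, has 85.7% of its words shared.

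Within the Sca-1+ fraction, nearly the whole family stood higher in traced than in untraced cells. In this comparison 75 of the 76 genes were on the higher side in tdT+ cells, with a median log2 fold change of 0.67 against 0.04 over all genes tested, and 53.6% of all genes tested were on the higher side. No gene passed an adjusted p of 0.05 in edgeR's quasi-likelihood test (Benjamini-Hochberg over all genes), where 2.74% of all genes did. At an unadjusted p under 0.05, 45 genes (59.2%) were higher, against 5.14% of all genes tested, and for 58 genes (76.3%) every tdT+ library lay above both tdTneg libraries, against 15.8%. DESeq2 called 9 of the 76 (Rplp0, Rplp1, Rplp2, Rps2, Rps9, Rps21, Rps26, Rpl30 and Rpl32), where it called 3.66% of the genes it was run on. Those were the 41302 genes with any count, a wider set than the 20307 tested in edgeR. Without Sca-1+ tdT+ replicate 2 the median was 0.44. The T cell and endothelial marker sums given above moved between the same 2 groups, in opposite directions: 14 of 15 T cell markers were higher and 12 of 12 endothelial markers lower at an unadjusted p under 0.05. Of 10 bulge markers, 6 fell at the adjusted threshold. The part of these cells in the result was not tested.

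The stalk of the large subunit, which recruits the elongation factors that use GTP, is formed by Rplp0, Rplp1 and Rplp2 with Rpl12 at its base. Rplp2 had 347, 452 and 345 CPM in traced Sca-1+ cells and 201 and 199.8 CPM in Sca-1+ tdTneg, so the groups were wide apart. Its log2 fold change was 0.93 ± 0.22 (SE), and its edgeR adjusted p of 0.0510 was the lowest of the family and just missed the threshold. Rplp1 had 497, 875 and 615 CPM against 249.6 and 345 CPM, and its log2 fold change of 1.16 ± 0.34 was the largest of the 76 (edgeR adjusted p = 0.121). Rplp0, often used as a reference gene in skin and other tissues, had 1146, 1709 and 1192 CPM against 781 and 762 CPM. Its log2 fold change was 0.81 ± 0.24 (edgeR adjusted p = 0.121). Rpl12 had a log2 fold change of 0.43 ± 0.14.

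At the exit tunnel, through which the new protein leaves the large subunit, all 9 genes were on the higher side with a median of 0.60. Rpl4, whose loop lines the tunnel, had 1869, 2777 and 1970 CPM in traced Sca-1+ cells, against 1476 and 1457 CPM in Sca-1+ tdTneg, with a log2 fold change of 0.59 ± 0.23 (edgeR adjusted p = 0.266). All 3 tdT+ values lay above both tdTneg values. Rpl35 reached 0.96 ± 0.30, Rpl39 0.94 ± 0.38 and Rpl26 0.78 ± 0.32. Rpl22, known for its need in the development of alpha-beta T cells, had 367, 543 and 416 CPM against 278 and 265 CPM, a log2 fold change of 0.70 ± 0.31 (edgeR adjusted p = 0.330).

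A further list of 6 genes of the large subunit had a median of 0.52, with Rpl13a at 0.68 ± 0.22, Rpl38 at 0.63 ± 0.31 and Rpl3 at 0.40 ± 0.14. Rpl10, a protein that joins the large subunit late, stood at 0.27 ± 0.26. Rpl5 and Rpl11 bind 5S rRNA and can hold the p53 regulator Mdm2, and their log2 fold changes were 0.42 ± 0.32 and 0.28 ± 0.28. Both were below the median of the family, and both had under 26 CPM in every library.

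On the small subunit, a list of 9 genes took in Rps6 and genes of the path of the mRNA and of the decoding site. All 9 were on the higher side, with a median of 0.67. Rps2, at the entry of the mRNA channel, reached 0.84 ± 0.24 (edgeR adjusted p = 0.114) and Rps3, its neighbour there, 0.71 ± 0.28. Rpsa stood at 0.42 ± 0.33, Rps23 of the decoding site at 0.40 ± 0.45 and Rps6 at 0.28 ± 0.39. The last 3 had at most 13.97 CPM in any library, and their errors are wide.

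Of 9 genes whose human counterparts are mutated in Diamond-Blackfan anaemia, a failure of red cell production, 8 were on the higher side, with a median of 0.47. Rps26 reached 0.94 ± 0.27 and Rps19 0.87 ± 0.30, Rpl35a stood at 0.79 ± 0.28, and Rps10 was the only member of the family below 0, at -0.13 ± 0.31. The 4 X-linked genes ran from 0.27 ± 0.26 in Rpl10 to 0.94 ± 0.38 in Rpl39. Rps4x, one of them, had 193, 289.6 and 187 CPM against 163 and 122 CPM. At the other end of the family, Rps21 reached 1.01 ± 0.29 and Rpl32 0.98 ± 0.30, while Rpl24 stood at 0.06 ± 0.45 and Rpl28 at 0.01 ± 0.34. The signs of Rpl24, Rpl28, Rps10 and Rps23 in this comparison change with the processing.

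**Figure D4:**
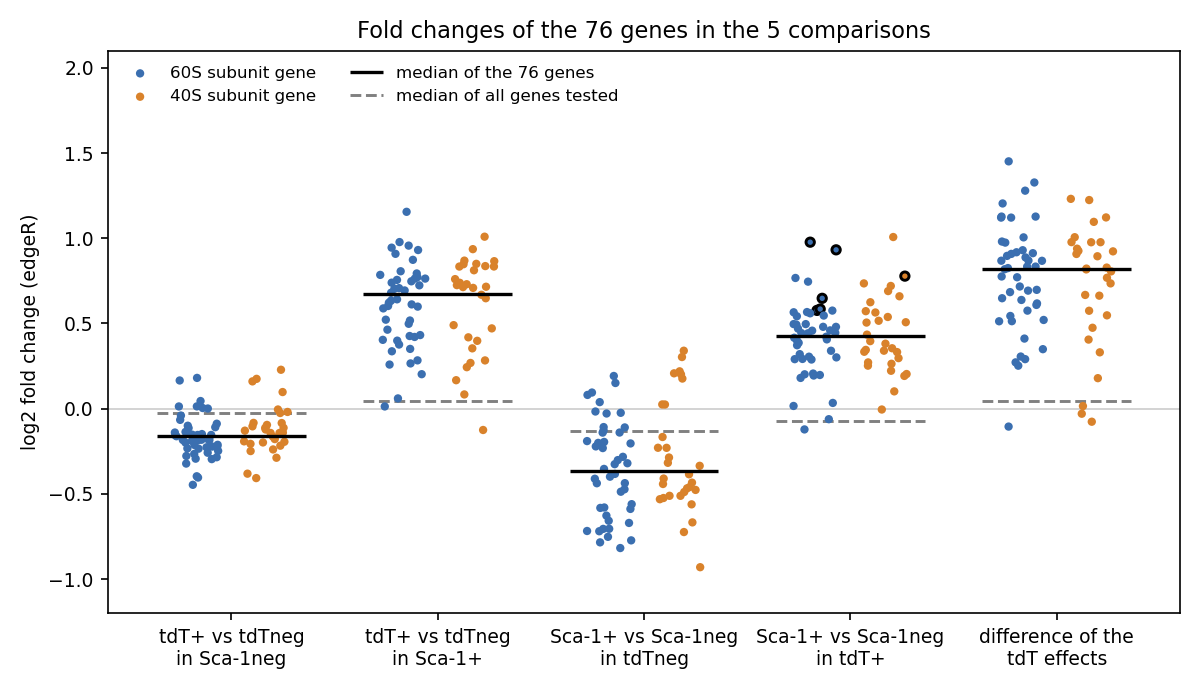
Log2 fold change of each of the 76 genes (points, 60S blue and 40S orange, edgeR) in the 5 comparisons, with the median of the 76 (black line) and of all genes tested (dashed line); points ringed in black passed an adjusted p of 0.05. The family sits above the other genes for traced against untraced Sca-1+ cells (median 0.67), Sca-1+ against Sca-1neg traced cells (0.43) and the difference of the tdT effects (0.82), and below them for Sca-1+ against Sca-1neg untraced cells (-0.37).

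The genes whose sequence is least shared were read on their own. Of the 7 genes with under 20% of their words in other genes (among them Rps3, Rps20, Rps24, Rpl4, Rpl8 and Rpl39), all 7 were on the higher side in Sca-1+ tdT+ cells, from 0.47 to 0.94 with a median of 0.71. For all 7, every tdT+ library lay above both tdTneg libraries, against 15.8% of all genes tested. The low percent of Rps20 depends on a main transcript of 3706 bases. Its 277 shared words, of 3657, occur in 50 other genes. Over the whole family, the median log2 fold change in this comparison was 0.74 in genes at or under 50% shared, 0.62 from 50% to 80% and 0.41 over 80%.

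In the Sca-1neg fraction, the traced and untraced cells were close. Here 11 of the 76 genes (14.5%) were on the higher side in tdT+ cells, against 47.3% of all genes tested, with a median log2 fold change of -0.16 against -0.03 over all genes. The values ran only from -0.45 to 0.23. No gene passed an edgeR adjusted p of 0.05, as did 0.064% of all genes, and DESeq2 called none of the 76 either. At an unadjusted p under 0.05, 3 genes were lower (Rpl13a, Rpl3 and Rpl12), which at 3.95% is next to the 3.86% of all genes. For 3 genes the groups did not overlap, with tdT+ lower (3.95%, against 10.9% of all genes). Rpl13a, a ribosomal protein also known for silencing inflammatory mRNAs, was the lowest at -0.45 ± 0.19, with 26.7, 21.9 and 22.5 CPM in Sca-1neg tdT+ and 27.7, 34.6 and 34.7 CPM in Sca-1neg tdTneg. Rps23 stood at -0.41 ± 0.40 and Rpl19 at -0.40 ± 0.43, and at the upper end Rps13 at 0.23 ± 0.32, Rpl36a at 0.18 ± 0.26 and Rps27a at 0.17 ± 0.23. Without Sca-1neg tdTneg replicate 3 the median turned to 0.06, and without replicate 2 of the traced group, whose tracer count goes against its label, it was -0.085 with 17 genes on the higher side. Leaving out the 3 liver-transcript libraries gave -0.0073 against -0.12 over all genes, with 34 genes on the higher side. The traced group then holds 1 library, taken to vary like the other groups.

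The difference between the tdT effects of the 2 fractions was tested directly. It was positive, that is, the effect was more upward in Sca-1+ cells, for 73 of the 76 genes, against 52.5% of all genes tested, with a median of 0.82 against 0.05. No gene passed an edgeR adjusted p of 0.05, as did 0.483% of all genes; DESeq2 called Rplp2 alone, where it called 2.16% of the genes it was run on. At an unadjusted p under 0.05, 36 genes (47.4%) were positive, against 4.75% of all genes tested. Rplp2 had the lowest p, with a difference of 1.33 ± 0.29 (edgeR adjusted p = 0.0815), and Rplp1 had the largest difference, 1.45 ± 0.44. Rpl35, after Rplp2, stood at 1.28 ± 0.40. At the lower end stood Rps10 at -0.03 ± 0.42 and Rpl24 at -0.11 ± 0.61. The median of the 76 was 0.56 without Sca-1neg tdTneg replicate 3, 0.57 without Sca-1+ tdT+ replicate 2, and 1.10 with the 32-week libraries alone, where the Sca-1+ tdTneg group holds 1 library. For the same difference, 11 of 12 endothelial, 7 of 10 bulge and 6 of 12 myeloid and Langerhans cell markers were negative at an unadjusted p under 0.05, and their part was not tested.

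Between the Sca-1 fractions of untraced cells, most of the family was on the lower side in Sca-1+ cells, and no gene passed the threshold. Here 13 genes (17.1%) were on the higher side, against 41.5% of all genes tested, and the median log2 fold change was -0.37 against -0.13. At an edgeR adjusted p of 0.05, 5.74% of all genes passed; DESeq2 called Rplp2 and Rps21, 2 of the 76, where it called 7.16% of the genes it was run on. At an unadjusted p under 0.05, 10 genes (13.2%) were lower, against 9.96% of all genes, and for 25 genes (32.9%) both Sca-1+ libraries lay below all 3 Sca-1neg libraries, against 26.4%. These shares are not far from those of all genes. Rplp2 had 201 and 199.8 CPM in Sca-1+ tdTneg and 259, 389.9 and 363 CPM in Sca-1neg tdTneg, a log2 fold change of -0.75 ± 0.22 (edgeR adjusted p = 0.0712). Rps21, a small protein of the 40S subunit, was the lowest at -0.93 ± 0.29, with 122 and 121 CPM against 158, 233 and 306 CPM (edgeR adjusted p = 0.0913). Rpl35a stood at -0.82 ± 0.28 and Rpl38, known for its part in the translation of Hox mRNAs, at -0.78 ± 0.31. At the upper end were Rps12 at 0.30 ± 0.18 and Rps6 at 0.22 ± 0.38. The endothelial markers, with 11 of 12 higher in Sca-1+ tdTneg at an unadjusted p under 0.05, and the T cell markers, with 13 of 15, moved with this comparison. So did 12 myeloid and Langerhans cell markers, of which 5 rose (their sum was 721 to 1309 CPM against 21.1 to 137 CPM), 10 bulge markers, of which 5 fell, and 5 mitochondrial mRNAs tested, of which 2 fell. The part of these in the result was not tested. Without Sca-1neg tdTneg replicate 3 the median of the family was -0.15, next to -0.12 over all genes.

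Between the Sca-1 fractions of traced cells, 6 of the 76 genes rose in Sca-1+ cells and none fell. The 6 are 7.89% of the family. Of all genes tested, 5.94% were higher at an edgeR adjusted p of 0.05 (12.7% passed in either direction), so the shares were near each other at this filter. Among genes with at least 10 CPM in 2 libraries, 5 of 69 members passed, where 21.3% of all genes did in either direction. The general placing was wider than the calls: 73 genes (96.1%) were on the higher side, against 46.5% of all genes, with a median log2 fold change of 0.43 against -0.07. At an unadjusted p under 0.05, 21 genes (27.6%) were higher, against 13.3%, and for 28 genes (36.8%) all 3 Sca-1+ libraries lay above all 3 Sca-1neg libraries, against 15.4%. All 15 T cell markers were also higher in this comparison at an unadjusted p under 0.05, 14 of them past the adjusted threshold. All 10 bulge markers fell, 5 of 15 proliferation markers rose, and 18 of 20 liver transcripts were lower at an unadjusted p under 0.05. The part of these in the result was not tested. Without Sca-1+ tdT+ replicate 2 the median of the family was 0.26. DESeq2 called 11 of the 76, where it called 11.6% of the genes it was run on.

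Rps12, a 40S protein of the head of the small subunit, had 56.3, 58.8 and 49.6 CPM in traced Sca-1+ cells, against 26.8, 38.6 and 30.7 CPM in Sca-1neg tdT+, with no overlap. Its log2 fold change was 0.78 ± 0.16 (edgeR adjusted p = 0.0100). In tdTneg cells it had 47.5 and 43.7 CPM in Sca-1+ and 34.98, 35.9 and 39.9 CPM in Sca-1neg, so it was on the higher side of the Sca-1+ fraction there too, unlike most of the family. Of its 50-base words, 83.5% occur in other genes.

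Rpl13a had 40.1, 57.5 and 38.1 CPM in traced Sca-1+ cells, against 26.7, 21.9 and 22.5 CPM in Sca-1neg tdT+, a log2 fold change of 0.93 ± 0.19 (edgeR adjusted p = 0.0106). Its Sca-1+ tdTneg libraries, at 25.9 and 30.5 CPM, lay near the Sca-1neg tdT+ group. Rplp0 had 1146, 1709 and 1192 CPM against 720.1, 591 and 745 CPM, a log2 fold change of 0.98 ± 0.21 (edgeR adjusted p = 0.0117), and all its other libraries had at most 951 CPM. The Sca-1+ tdT+ libraries were thus the 3 highest of the 11 for both genes.

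Rpl12 had 53.3, 59.2 and 50.9 CPM in traced Sca-1+ cells, against 36.0, 36.0 and 37.5 CPM in Sca-1neg tdT+, a log2 fold change of 0.58 ± 0.13 (edgeR adjusted p = 0.0133). Rpl3, which reaches towards the peptidyl transferase centre, had 108.1, 133 and 109.7 CPM against 78.1, 80.3 and 75.7 CPM, also 0.58 ± 0.13 (edgeR adjusted p = 0.0138). Both had a small spread within groups, and for both the Sca-1+ tdT+ libraries were the 3 highest of all. Rpl29 had 51.1, 68.9 and 53.4 CPM against 38.2, 29.2 and 43.3 CPM, a log2 fold change of 0.65 ± 0.19 (edgeR adjusted p = 0.0497), and it lost its call in 17 of 21 alternatives. Words of Rpl29 occur in 84 other genes and of Rpl3 in 26, nearly all pseudogenes, so their counts are uncertain.

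**Figure D5:**
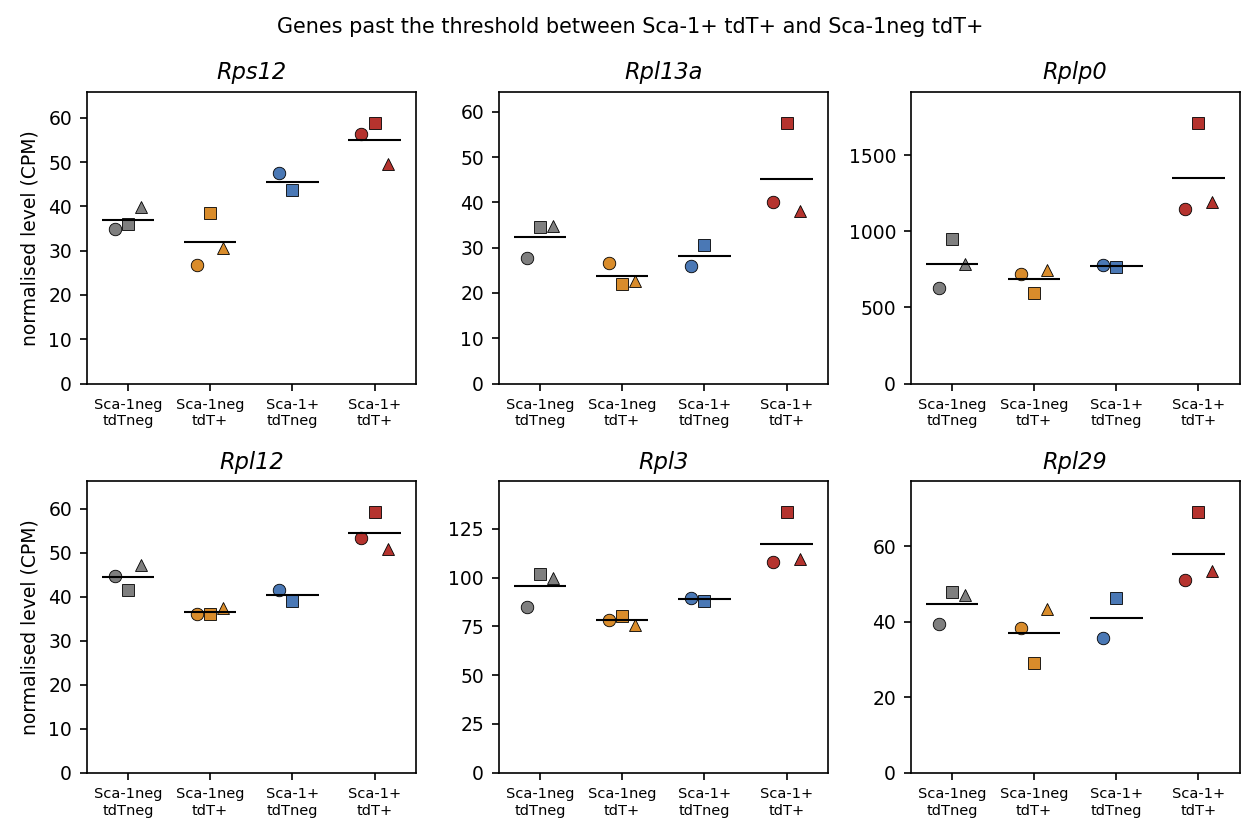
Normalised level (CPM, axis from 0) of the 6 genes that passed the threshold between Sca-1+ tdT+ and Sca-1neg tdT+ cells, by group. Points are libraries (circle, square and triangle for replicates 1, 2 and 3) and lines are group means; in every panel the 3 Sca-1+ tdT+ libraries lie above the 3 Sca-1neg tdT+ libraries.

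The largest value of the comparison was Rps23 at 1.01 ± 0.40, with 6.32, 11.98 and 5.83 CPM against 3.72, 5.41 and 2.87 CPM, which did not pass (edgeR adjusted p = 0.127). Of the stalk, Rplp1 stood at 0.75 ± 0.29 and Rplp2 at 0.58 ± 0.19, neither past the threshold. At the lower end were Rpl24 at -0.12 ± 0.40, Rpl15 at -0.06 ± 0.22 and Rps10 at -0.01 ± 0.28. With the 32-week libraries alone none of the 76 passed, with 2 libraries in each group compared, and 1.58% of all genes did. Without the 3 libraries with liver transcripts Rps12 alone passed, where 10.3% of all genes did, 60 genes were on the higher side, and the median was 0.25 against 0.12 over all genes. That fit sets the 3 Sca-1+ libraries against 1 Sca-1neg tdT+ library, taken to vary like the other groups. Without Sca-1neg tdT+ replicate 2, whose tracer count goes against its label, 5 of the 6 passed and Rpl29 did not.

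Other genes of the ribosome and of translation were read from lists kept outside the family. The comparisons that share a group of libraries are not independent of each other, and each list is given by its own values. Rack1, a scaffold protein of the 40S subunit whose name the rule does not match, had 1622, 2511 and 1711 CPM in traced Sca-1+ cells and 1144 and 1233 CPM in untraced ones. Its Sca-1neg libraries had 1106, 950.4 and 1241 CPM with tdT and 994, 1467 and 1406 CPM without. It rose in Sca-1+ against Sca-1neg traced cells (log2 fold change 0.83, edgeR adjusted p = 0.0312), where 5.94% of all genes tested rose. In that comparison 3 of 18 elongation factors and related TOP mRNAs rose and none fell, with a median of 0.53: Pabpc1 (0.95), which binds poly(A) tails, Eef1g (0.68) and Eef2 (0.65), which moves the ribosome along the mRNA. Of 25 initiation factors, 7 rose and none fell, with a median of 0.38, among them Eif6 (0.82), which keeps the subunits apart, Eif3d (0.68) and Eif5a (0.70).

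Of 50 genes of ribosome assembly, 18 rose and 1 fell in the same comparison, where 5.94% of all genes tested rose. Their median was 0.53. Ddx21 (0.87), a nucleolar helicase, and Wdr43 (0.70) rose, and Tsr2 (-0.79), the chaperone of Rps26, fell. Of 20 genes of RNA polymerase I, Polr1d (0.91) and Taf1c (0.76) rose and none fell, with a median of 0.16. Of 24 regulators in the Myc, mTOR and p53 circuits, only Cdkn1a (1.21), a cell cycle inhibitor, rose; Myc itself ran from 109 to 179 CPM over the 11 libraries. Of 77 mitochondrial ribosomal protein genes tested none passed in edgeR. At an unadjusted p under 0.05, 11 of them were higher, where 13.3% of all genes tested were. On the higher side were 63, against 46.5% of all genes, with a median of 0.24.

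Between traced and untraced Sca-1+ cells none of these lists had a gene past the edgeR threshold. At an unadjusted p under 0.05, 8 of the 18 elongation factors and related TOP mRNAs were higher. So were 5 of 25 initiation factors, 4 of 50 assembly genes, 2 of 20 RNA polymerase I genes and 11 of 77 mitochondrial genes. Of all genes tested, 5.14% were. The median there was 0.50 for the elongation factors and related TOP mRNAs, against 0.67 for the 76 cytosolic genes. It was 0.23 for initiation factors, 0.27 for ribosome assembly, 0.22 for RNA polymerase I and 0.34 for the mitochondrial ribosome. Of 8 RNAs that host small nucleolar RNAs, all 8 were on the higher side with a median of 0.54, and Gas5, a host RNA that itself starts with a pyrimidine run, had 390, 424 and 299 CPM against 273 and 264 CPM. The paralogs of ribosomal proteins were few in these cells: Rpl7l1, Rpl22l1 and Rps27l had 32.1 to 95.7 CPM, Rps4l 4.49 to 18.2 CPM and Rpl36al 2.05 to 4.61 CPM, while Rpl3l, Rpl10l, Rpl39l and Rps27rt had at most 3.33 CPM in any library. None of the paralogs tested passed the threshold in any of the 5 comparisons.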

How the data were processed

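RNA of 11 libraries in 4 sorted groups was analysed. The deposited files hold raw counts per Ensembl gene, 1 file per library. The submitters' processing notes name bcl2fastq 2.20.0.422, FastQC, STAR, featureCounts, DESeq2 1.18.1 and the build mm10. For the annotation release, the strand setting and multi-mapping reads, nothing is given in the sources used here. An additional entry under a protein identifier was read as the tdT tracer and kept out of the tests. Symbols and coordinates came from GENCODE M21, which named all 55536 identifiers.

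Counts were tested in R 4.3.3 with edgeR 4.0.16: filterByExpr by group, TMM scaling, glmQLFit with robust estimation, 4 group means over all 11 libraries (7 residual degrees of freedom), glmQLFTest, and Benjamini-Hochberg adjustment over the 20307 genes tested, with a threshold of 0.05. A standard error is the absolute log2 fold change over the square root of F. CPM are scaled by TMM, and the family's shares are percent of unscaled gene counts. The test was also run on simulated counts with the same spread for every gene. That run does not cover liver transcripts, a tracer count that goes against a label, or genes that move together. DESeq2 1.42.0, other scalings and filters, ages and left-out libraries were the alternatives.

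Members named in a comparison are those past the threshold, the 3 highest and 3 lowest fold changes, the 3 highest and 3 lowest levels per length, and lists by role; 2 members enter every count and median but are not reported by name here. The members, the lists and the libraries left out were chosen with earlier results of these data known, so no list is tested as a whole. Rps26, Rps9, Rpl30 and other genes named as called by DESeq2 are named for that call. Beyond the pooling of mice and their ages, the labels do not say how replicates were separated, so p-values measure the spread between these libraries, which may be partly technical. No library was a copy of another of its group: chi-square over its degrees of freedom was at least 51.5 in all 10 pairs.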

Additional observations from a re-analysis of the deposited data

How the results depend on the processing

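Counts of genes past the threshold moved with the test. DESeq2 called 9 of the 76 for the tdT effect in Sca-1+, 2 for the Sca-1 effect in tdTneg, 11 for the Sca-1 effect in tdT+ and 1 for the difference of the tdT effects, against 0, 0, 6 and 0 in edgeR. It called 3.66%, 7.16%, 11.6% and 2.16% of the 41302 genes with any count. Those include genes with too few counts to be called, so these shares are not like those of the 20307 genes tested in edgeR. With no low-count filter the counts were 2, 1, 5 and 1, and the shares of all genes 1.55%, 2.64%, 5.22% and 0.567%. With a filter of at least 10 CPM in 2 libraries, the counts among the 69 members left were 0, 0, 5 and 0. The shares of all genes were then 5.01%, 12.5%, 21.3% and 1.51%. For the tdT effect in Sca-1+, 1 gene passed without the 3 libraries with liver transcripts, and 1 with only the groups being compared. For the Sca-1 effect in tdT+ these settings gave 1 and 3, and the 32-week libraries alone gave 0. Leaving out each library in turn gave 0 to 1 for the tdT effect in Sca-1+, for the Sca-1 effect in tdTneg and for the difference, and 5 to 6 for the Sca-1 effect in tdT+. The count for the tdT effect in Sca-1neg was 0 under all alternatives run. Without the liver libraries Sca-1neg tdT+ holds 1 library, and at 32 weeks Sca-1+ tdTneg does, as it also does when either of its libraries is left out; a lone library is taken to vary like the other groups. The 32-week fit comes with fewer samples, and the cause of the other changes was not tested.

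Median log2 fold changes over leave-one-out fits ran from -0.29 to 0.0589 (tdT effect in Sca-1neg), from 0.44 to 0.76 (tdT effect in Sca-1+) and from 0.56 to 0.93 (difference), and the difference was 1.10 with 32-week libraries alone. The medians of both Sca-1 effects moved by less than the pooled SD of the library medians within groups (0.221) in every alternative run. That of the Sca-1 effect in tdTneg still went from -0.37 to -0.15 without Sca-1neg tdTneg replicate 3, next to -0.12 over all genes. DESeq2 size factors moved the median of all genes for the difference from 0.05 to -0.07, and that of the 76 from 0.82 to 0.70. The share of counts in Sca-1+ tdTneg was 1.183% of protein-coding counts, against 1.10%.

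Single genes near 0 changed sign. For the tdT effect in Sca-1+, Rpl28 was at -0.016 by DESeq2, -0.018 with DESeq2 size factors, -0.021 by library size, -0.053 with no filter, -0.25 with 32-week libraries, -0.0474 without liver libraries and -0.021 with only the groups compared. Rpl24 was at -0.00602 with no filter and -0.00740 without liver libraries. With 32-week libraries Rps10 was at 0.25. Leave-one-out ranges were -0.24 to 0.26 for Rpl28, -0.0892 to 0.14 for Rpl24, -0.45 to 0.22 for Rps10 and -0.062 to 0.58 for Rps23. For the Sca-1 effect in tdT+ they were -0.21 to 0.071 for Rpl15, -0.24 to 0.031 for Rpl24 and -0.16 to 0.17 for Rps10, which was at 0.021 by library size. For the difference they were -0.28 to 0.048 for Rpl24 and -0.34 to 0.33 for Rps10, and Rps10 was at 0.064 with 32-week libraries.

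Whether replicate numbers pair the libraries could not be told. Same-numbered libraries of different groups correlated in their deviations from -0.42 to 0.59. Sca-1neg tdT+ replicate 1 correlated better with Sca-1neg tdTneg replicate 2 (0.51) than with Sca-1neg tdTneg replicate 1 (-0.42). Both libraries of the first pair hold liver transcripts, and in the second pair only one does. Outside the liver-transcript libraries, same-numbered pairs ran from -0.04 to 0.59 and differently numbered pairs from -0.18 to 0.46. With a replicate block the counts were 0, 0, 0, 5 and 0, against 0, 0, 0, 6 and 0. The shares of all genes with the block were 0.0739%, 2.47%, 5.06%, 12.7% and 0.606%.

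Groups of 2 or 3 pools of mice limit these tests, and genes with few counts or many shared words limit the reading of single members.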
